A study of Mus musculus with 15 samples.

Results

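The 10 genes described here are the chromosome 1 genes Nav1, Tnnt2, Idh1, Gpr55, Ugt1a6a, Bok, Pign, Clasp1, Dbi and Aim2, whose RNA levels differed between transgenic and wild-type mouse brains. They were chosen by that difference. In a fit that allowed for brain region, 20 of the 975 chromosome 1 genes tested passed an adjusted p of 0.05 between genotypes. These 10 are among the 20, though not the 10 with the smallest adjusted p, out of 17151 genes tested in all. The genotype values of the 10 are therefore given as a description, with no test. Tests are given only for sex, for library class and for whether the genotype difference varied with either. The choice used fits without such an interaction, so genes with a varying difference were less likely to be chosen.

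RNA was sequenced from bulk brain tissue of mice aged 12 months in 4 groups. TG animals were homozygous for the PLP-α-synuclein transgene, which places human α-synuclein under the promoter of the myelin gene PLP, active in oligodendrocytes. WT animals were non-transgenic mice of the C57Bl/6 background. There were 4 WT males, 4 WT females, 4 TG females and 3 TG males (replicates 1, 3 and 4). All TG animals belong to 1 transgenic line, so the transgene and any other DNA that the line carries cannot be told apart. The sample titles carry a separate prefix for each of the 4 groups. Genotype, sex and their interaction therefore cannot be told apart from whatever the prefixes stand for. In bulk tissue, fewer cells of a type and less RNA per cell cannot be told apart either.

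Genes that lie close together on a chromosome tend to be inherited together, and a transgenic line keeps stretches of the chromosomes of its founder animal. Whether the 10 genes share a pathway was not tested. Nav1 and Clasp1 encode proteins of growing microtubule ends, and Tnnt2 a troponin of heart muscle. Idh1, Dbi, Ugt1a6a and Pign encode metabolic enzymes or carriers of the cytosol and the endoplasmic reticulum. Gpr55 is a lipid receptor, Bok a relative of BCL2, and Aim2 a sensor of cytosolic DNA.

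The libraries held between 15170772 and 35850998 counts, with a median of 17635366. Levels are given as CPM, a gene's count relative to the TMM-scaled total of its library, and 3 counts correspond to 0.0834 to 0.194 CPM. All libraries are labelled as hemisphere, but they carried markers of different brain regions, which sorted them into 4 classes. The hindbrain class was set by over 10 CPM of Hoxa5, a patterning gene of that region, and held replicate 3 of the WT males and of the WT females and TG females 1 and 4. Gabra6, a receptor subunit of cerebellar granule cells, was over 100 CPM in TG female 3 alone. Omp, a marker of olfactory sensory axons, was over 10 CPM in 7 other libraries (WT males 1 and 2, WT females 1 and 4, TG female 2, TG males 1 and 3). The cortex class, set by over 100 CPM of Neurod6, a transcription factor of excitatory neurons there, held TG male 4, WT female 2 and WT male 4. The olfactory class thus held 4 WT and 3 TG libraries, the hindbrain class 2 and 2, the cortex class 2 WT and 1 TG, and the cerebellum class 1 TG library. Each genotype difference below is a log2 difference ± SE, TG minus WT, from edgeR's quasi-likelihood fit over all 15 libraries with terms for sex and library class. TG female 3, alone in its class, adds nothing to that difference.

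The start regions of Nav1 and Tnnt2 are shown because these genes lie near each other and, among the 10, had the clearest separation of the genotypes. Each window runs from 250 bases before to 50 bases after a start listed in RefSeq (GRCm38.p6), 5′ to 3′ on the gene's own strand, and capitals mark CpG dinucleotides. The Nav1 window lies on the minus strand at chr1:135585306-135585605 and the first listed Tnnt2 window on the plus strand at chr1:135836084-135836383. The RefSeq gene Nav1 reaches further upstream, to 135688350, so its window is at a start inside the gene.
Nav1: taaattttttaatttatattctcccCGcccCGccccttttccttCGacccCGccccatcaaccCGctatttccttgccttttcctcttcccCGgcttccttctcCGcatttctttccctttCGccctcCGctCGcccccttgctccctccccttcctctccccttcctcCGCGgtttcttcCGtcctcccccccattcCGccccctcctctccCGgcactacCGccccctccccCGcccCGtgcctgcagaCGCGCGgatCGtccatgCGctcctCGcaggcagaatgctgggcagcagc
Tnnt2: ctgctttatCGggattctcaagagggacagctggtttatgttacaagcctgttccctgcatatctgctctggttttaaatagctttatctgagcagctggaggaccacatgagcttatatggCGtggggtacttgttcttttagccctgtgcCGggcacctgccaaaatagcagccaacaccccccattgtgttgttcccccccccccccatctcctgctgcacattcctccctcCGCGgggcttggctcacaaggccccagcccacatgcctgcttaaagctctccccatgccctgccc
The Nav1 window held 24 CpG, more than 80.0% of the 32851 windows of 300 bases in the table, whose median was 7. The Tnnt2 window shown held 5, more than 38.0% of them, and a second listed Tnnt2 window held 1, more than 5.4%. Among the other members the count was 28 in the first listed window of Dbi, 23 in that of Idh1, 18 in Pign, 16 in Bok, 5 in Aim2, 4 in Gpr55 and 3 in Ugt1a6a. The Aim2 and Gpr55 windows, like that of Nav1, lie at starts inside the RefSeq gene. A window was found for 9 of the 10 genes, and Clasp1 is named only. The genes thus included CpG-rich and CpG-poor starts, in both directions of difference.

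Of the 10 genes, 7 were lower and 3 higher in TG. By the rule that chose them all 10 passed with the class term, where 85 of 17151 genes did so (0.496%). Without that term Nav1 and Tnnt2 passed, against 19 of 17151 genes (0.111%). Of the 10, these were also the genes whose TG and WT ranges did not overlap over all 15 libraries, which was so for 0.187% of genes tested. Among the other chromosome 1 calls, Mcm6, Slc35f5 and Ddx59 were separated in this way as well. Within the olfactory class 9 of the 10 did not overlap, against 6.78% of all genes, and the exception was Idh1. Within the hindbrain class none of the 10 overlapped, against 38.6% of all genes. In the cortex class the TG library lay outside the range of the WT libraries for 9, against 72.7% of all genes, so that the small hindbrain and cortex classes say little by themselves. Since these counts use the contrast that chose the genes, nothing is read from them.

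**Figure D1:**
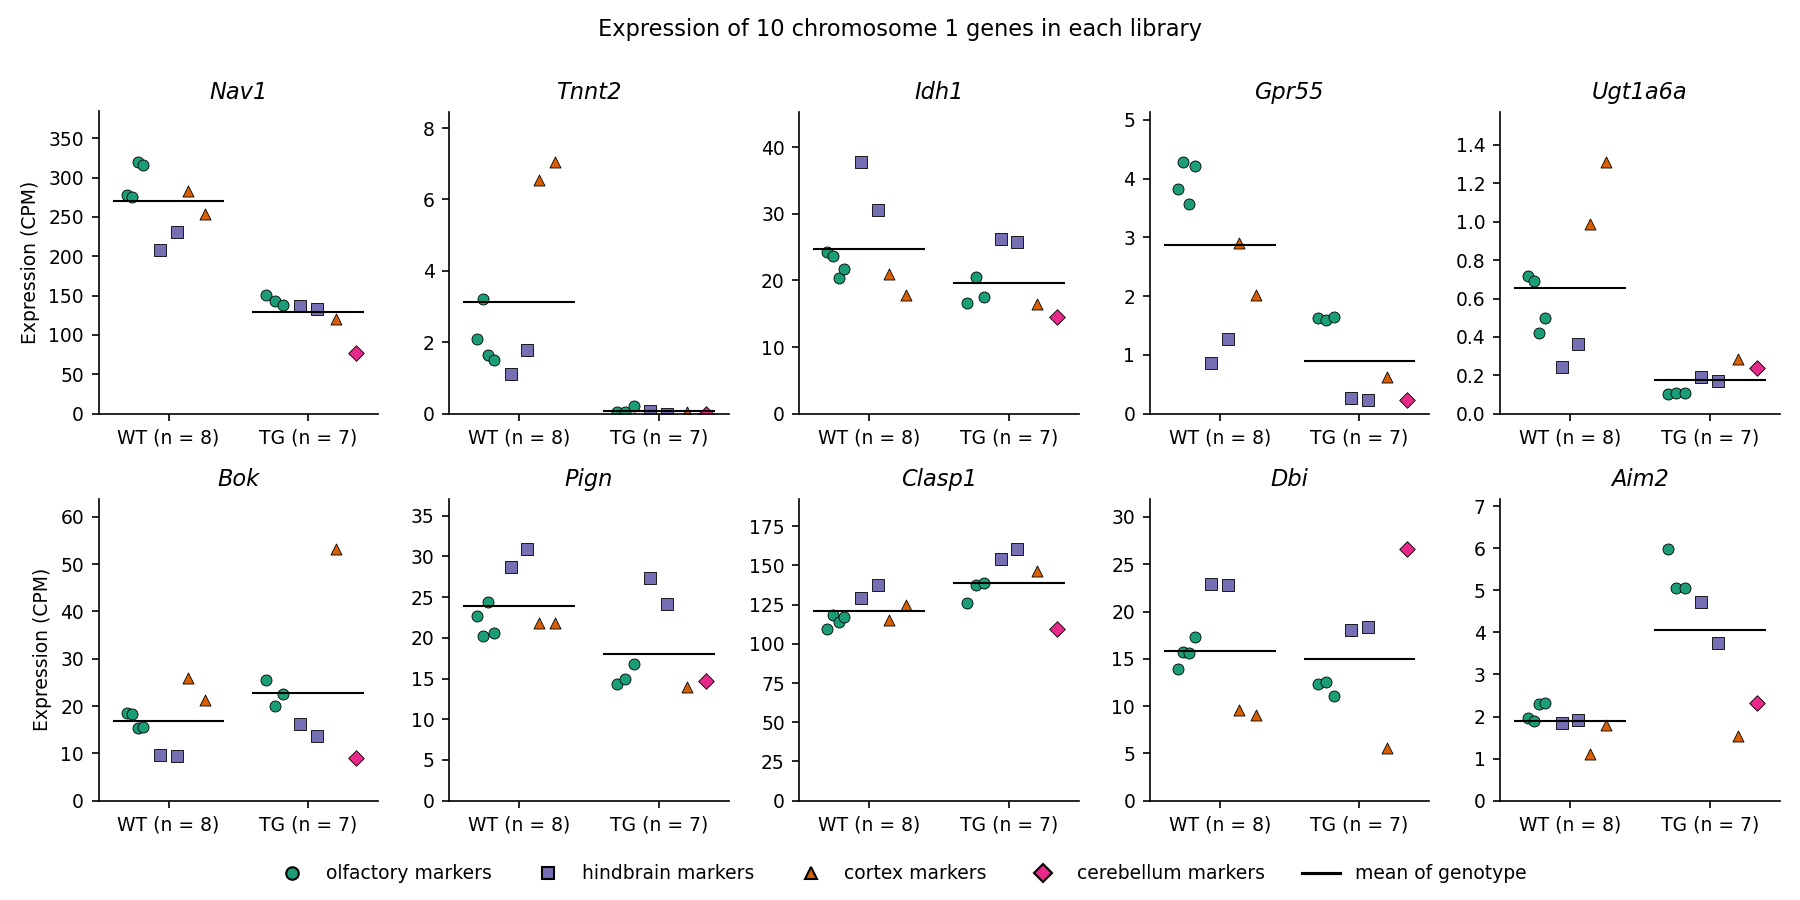
Expression of each of the 10 genes in CPM (linear axis from 0) in each of the 15 libraries, WT (n = 8) and TG (n = 7), with symbols for library class and a line at the mean of each genotype. Nav1 and Tnnt2 show no overlap between genotypes, while Dbi and Bok spread widely by class within each genotype.

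Nav1 (NCBI gene 215690, chromosome 1, 135434580 to 135688350, GRCm38.p6) encodes neuron navigator 1, a microtubule-associated protein of growing axons and migrating neurons. In the olfactory class it lay at 278, 276, 320 and 315 CPM in WT and at 151, 143 and 138 CPM in TG. It lay at 208 and 231 CPM in WT and 137 and 133 CPM in TG in the hindbrain class, and at 283 and 254 CPM in WT and 120 CPM in TG in the cortex class. Every WT library was above every TG library. The cerebellum-class library, TG female 3, was the lowest of all at 77.5 CPM. The difference was -0.96 ± 0.06, and the olfactory-class mean in TG was 48.6% of that in WT (144 ± 6.56 against 297 ± 23.7 CPM, SD, n = 3 and 4). An antisense gene, Gm4793, covers 589 exon bases (3.4%) of Nav1 in GENCODE, and whether the counting used strand is not given in the sources used here.

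Clasp1 (gene 76707, 118389058 to 118609462) encodes a protein that stabilises microtubule plus ends, and was higher in TG. Its olfactory-class values were 109, 118, 114 and 117 CPM in WT and 126, 137 and 139 CPM in TG. The hindbrain-class values were 129 and 138 CPM in WT and 154 and 161 CPM in TG. The ranges did not overlap within either class, but those over all libraries did: TG ran from 110 CPM in TG female 3 to 161 CPM, and WT from 109 to 138 CPM. With a difference of 0.24 ± 0.04 it was the smallest of the 10, and the TG mean was 1.17-fold the WT mean in the olfactory class and 1.22-fold in the cortex class (1 TG library at 146 CPM, WT at 116 and 124 CPM).

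Tnnt2 (gene 21956, 135836315 to 135852268) encodes troponin T of the thin filament in heart muscle, and its counts in brain were low. In WT the CPM ran from 1.11 through a median of 1.93 to 7.05, the highest values being those of the cortex class at 6.54 and 7.05. In TG the deposited counts were 1, 1, 0 and 0 in females 1 to 4 and 1, 4 and 1 in males 1, 3 and 4. All but 1 of the TG libraries thus lay below 3 counts, and TG male 3 was the exception at 0.220 CPM. Pooled over libraries, 485 counts in WT stood against 8 in TG, a ratio of 44.5 with an exact 95% interval of 22.4 to 104 that covers counting error only. In the olfactory class 159 counts stood against 6, a ratio of 20.4 (9.15 to 56.3). The fitted difference of -5.01 ± 0.43 depends on how counts near 0 are treated.

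Idh1 (gene 15926, 65158616 to 65186479) encodes the cytosolic isocitrate dehydrogenase, a source of NADPH. In the olfactory class it had 24.3, 23.7, 20.4 and 21.7 CPM in WT and 16.5, 20.6 and 17.5 CPM in TG. TG male 1, at 20.6 CPM, lay above WT female 1, so these ranges overlapped. In the hindbrain class WT lay at 37.8 and 30.5 CPM and TG at 26.3 and 25.8 CPM, and in the cortex class WT lay at 21.0 and 17.8 CPM and TG at 16.4 CPM. Its difference was -0.32 ± 0.05, with TG means at 80.9%, 76.2% and 84.6% of WT in the olfactory, hindbrain and cortex classes.

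Dbi (gene 13167, 120113280 to 120121096) encodes the acyl-CoA binding protein, also known as diazepam binding inhibitor, which is abundant in glia. Olfactory-class libraries had 14, 15.7, 15.6 and 17.3 CPM in WT and 12.3, 12.6 and 11 CPM in TG. WT hindbrain-class libraries lay at 22.9 and 22.8 CPM and TG ones at 18.1 and 18.4 CPM. TG lay below WT in each class, yet the ranges over all libraries spanned each other, from 5.56 CPM in TG male 4 to 26.6 CPM in TG female 3. The difference was -0.42 ± 0.07 with the class term and -0.19 ± 0.28 without it. Leaving out TG female 3 gave -0.33 without the class term, and leaving out TG male 4 gave -0.02.

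Ugt1a6a (gene 94284, 88134809 to 88220002) encodes a UDP-glucuronosyltransferase, which couples phenolic compounds to glucuronic acid. Counts were low, from 6 to 24 per library in WT and from 2 to 5 in TG. The olfactory-class values were 0.716, 0.691, 0.423 and 0.498 CPM in WT and 0.101, 0.110 and 0.110 CPM in TG, the latter from 2 counts each. In the hindbrain class the values lay closer together, at 0.246 and 0.361 CPM in WT and 0.194 and 0.170 CPM in TG. Pooled counts were 102 in WT and 21 in TG, a ratio of 3.57 with an exact 95% interval of 2.22 to 6.01 for counting error, and the fitted difference was -1.81 ± 0.31. The gene shares 1311 exon bases (30.4%) with other Ugt1a genes and 2170 (50.3%) with Ugt1a7c. How reads of the shared exons were assigned is not given in the sources used here, so this value is uncertain. Ugt1a7c itself had a difference of -0.35 ± 0.24, not past the threshold.

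Pign (gene 27392, 105518421 to 105663741) encodes an ethanolamine phosphate transferase of the pathway that builds GPI anchors, the lipid tethers of surface proteins. In olfactory-class libraries it lay at 22.7, 20.3, 24.3 and 20.5 CPM in WT and 14.4, 14.9 and 16.7 CPM in TG. WT cortex-class libraries both lay at 21.9 CPM and the TG one at 14 CPM. The hindbrain class was higher in both genotypes, at 28.7 and 30.9 CPM in WT and 27.4 and 24.2 CPM in TG. The TG mean was 69.9% of WT in the olfactory class and 86.5% in the hindbrain class, and the difference was -0.44 ± 0.07.

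Gpr55 (gene 227326, 85933221 to 85991583) encodes a G protein-coupled receptor for lysophosphatidylinositol. The olfactory-class values were 3.82, 4.28, 3.56 and 4.21 CPM in WT and 1.62, 1.59 and 1.65 CPM in TG. In the hindbrain class WT lay at 0.860 and 1.28 CPM, and TG at 0.258 and 0.227 CPM from 4 counts each. The cortex class had 2.90 and 2.02 CPM in WT and 0.631 CPM in TG. Within each of these classes all WT values were above all TG values, while olfactory-class TG libraries lay above hindbrain-class WT ones. The difference was -1.56 ± 0.18. Its antisense neighbour 4933407L21Rik shares 71 exon bases (1.9%) with it and had a difference of -0.93 ± 0.19.

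Bok (gene 51800, 93685575 to 93695770) encodes a member of the BCL2 family that can permeabilise the outer mitochondrial membrane. The olfactory-class values were 18.4, 18.4, 15.5 and 15.6 CPM in WT and 25.4, 19.9 and 22.5 CPM in TG. The hindbrain-class values were 9.62 and 9.48 CPM in WT and 16.1 and 13.7 CPM in TG. TG male 4, of the cortex class, stood highest at 53.2 CPM, against 25.9 and 21.3 CPM in the WT libraries of its class. The difference was 0.64 ± 0.11 with the class term and 0.41 ± 0.30 without it. Leaving out TG male 4 gave 0.50 with the class term and 0.13 without it, while the olfactory-class mean in TG was 1.33-fold that in WT.

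Aim2 (gene 383619, 173349547 to 173466040) encodes a sensor that binds cytosolic DNA and starts an inflammasome, and was higher in TG. Among olfactory-class libraries it reached 1.97, 1.89, 2.30 and 2.33 CPM in WT and 5.99, 5.05 and 5.05 CPM in TG, a ratio of means of 2.53. The hindbrain-class values were 1.84 and 1.92 CPM in WT and 4.71 and 3.75 CPM in TG. In the cortex class the TG library, at 1.55 CPM, lay between the WT libraries at 1.11 and 1.80 CPM. The difference was 1.10 ± 0.15 over all libraries, from deposited counts of 18 to 69 in WT and 27 to 118 in TG. Of 8 microglia markers none passed between genotypes, and their summed level in the olfactory class ran from 295 to 372 CPM for TG and from 299 to 319 CPM for WT.

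Whether the genotype difference itself varied with library class was tested jointly for the hindbrain and cortex classes against the olfactory class. The choice of genes favoured a difference that was alike across classes. None of the 10 passed in edgeR's quasi-likelihood test, with adjusted p from 0.512 to 0.961, against 2 of 17151 genes (0.0117%). At an unadjusted p under 0.05 there were 2 of the 10 and 1373 genes in all, and none of the 10 passed in DESeq2. Aim2 and Bok were these 2, with unadjusted p of 0.0154 and 0.0162 in edgeR's quasi-likelihood test. The Aim2 difference was 1.38 ± 0.15 in the olfactory class, 1.03 ± 0.21 in the hindbrain class and 0.24 ± 0.29 in the cortex class. For Bok it was 0.41 ± 0.11, 0.68 ± 0.16 and 1.14 ± 0.18 in the same order. In both, the cortex value rests on 1 TG library, TG male 4. For Ugt1a6a the olfactory and hindbrain values were -2.39 ± 0.42 and -0.74 ± 0.52, and the joint test did not pass. For Nav1 they were -1.02 ± 0.07 and -0.75 ± 0.09. The term for their difference, 0.27 ± 0.12, had an unadjusted p = 0.0409 and an adjusted p = 0.851 (edgeR, quasi-likelihood). Clasp1 and Idh1 had the closest values, at 0.23 ± 0.06, 0.23 ± 0.08 and 0.29 ± 0.10 for Clasp1 and -0.34 ± 0.07, -0.27 ± 0.10 and -0.35 ± 0.12 for Idh1.

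**Figure D2:**
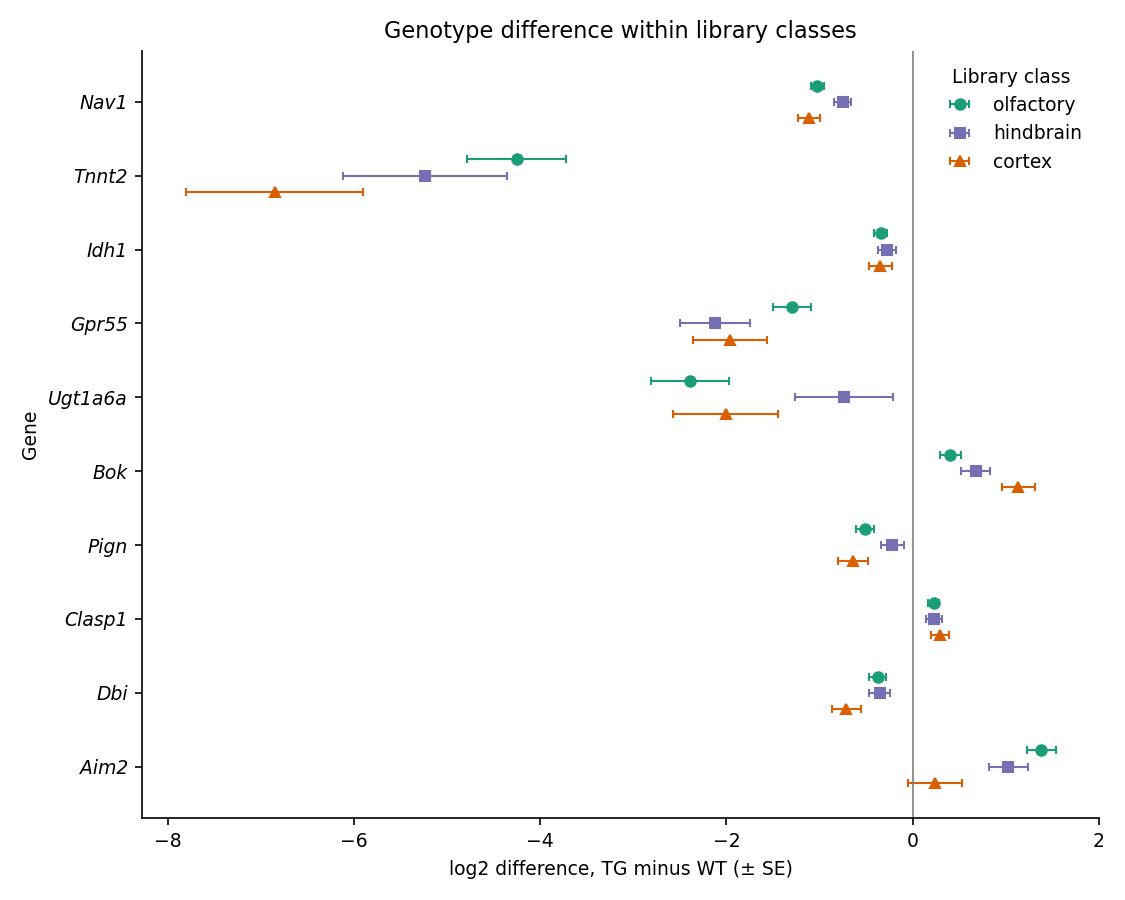
Genotype difference (log2, TG minus WT, ± SE) of each gene within the olfactory (4 WT, 3 TG), hindbrain (2 and 2) and cortex (2 WT, 1 TG) classes. All 3 values of each gene have the same sign, and the cortex value of Aim2, 0.24, is the one nearest to 0 relative to its error.

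The levels of all 10 genes differed between library classes, as did those of 81.2% of all genes tested. In the joint test of the class terms, adjusted p in edgeR's quasi-likelihood test ran from 3.00e-07 for Dbi to 0.00943 for Ugt1a6a. Against the olfactory class, 7 of the 10 differed in the hindbrain class, where 66.8% of all genes did. Idh1, Pign, Dbi and Clasp1 were higher there, by log2 values of 0.63 ± 0.06, 0.56 ± 0.09, 0.55 ± 0.08 and 0.22 ± 0.05. Gpr55, Bok and Nav1 were lower, at -2.10 ± 0.22, -0.70 ± 0.13 and -0.32 ± 0.07. In the cortex class 7 of the 10 differed from the olfactory class, against 48.9% of all genes. Tnnt2, Ugt1a6a and Bok were higher there, by 1.52 ± 0.35, 1.05 ± 0.32 and 0.76 ± 0.13, and Aim2, Gpr55, Dbi and Idh1 lower, at -0.97 ± 0.22, -0.89 ± 0.22, -0.85 ± 0.09 and -0.22 ± 0.06. The cerebellum class differed for 6 of the 10, against 35.3% of all genes, and rests on TG female 3. There Dbi was higher by 1.12 ± 0.13, and Gpr55, Bok, Aim2, Nav1 and Clasp1 were lower. In size, the difference between the hindbrain and olfactory classes was above that between genotypes for Idh1 (0.63 against 0.32) and below it for Nav1 (0.32 against 0.96), a comparison given without a test.

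**Figure D3:**
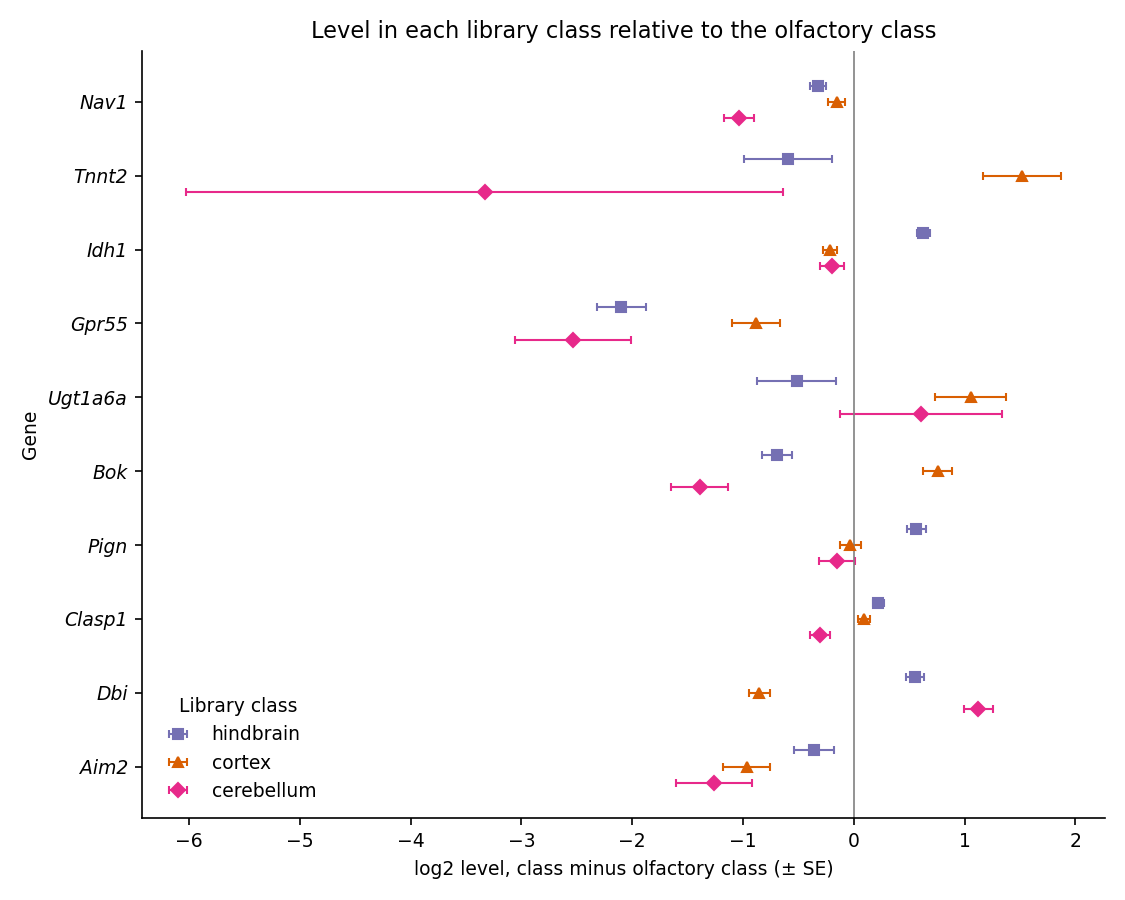
Level of each gene in the hindbrain (4 libraries), cortex (3) and cerebellum (1) classes relative to the olfactory class (7), as a log2 difference ± SE from the fit with genotype and sex. Gpr55 lies lowest in the hindbrain class at -2.10, Tnnt2 highest in the cortex class at 1.52, and the wide bar of Tnnt2 belongs to a single library with 0 counts.

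The olfactory class, which holds most libraries, gives the levels of the genes relative to each other once divided by exon length. In WT, Nav1 was highest at 17.2 ± 1.37 CPM per kb (SD, n = 4), followed by Dbi at 11 ± 0.956, Bok at 9.23 ± 0.905, Idh1 at 8.13 ± 0.641 and Clasp1 at 5.25 ± 0.188. Neighbours in this order, and in that of the low members below, differed by more than their ranges except Dbi with Bok and Bok with Idh1, whose ranges overlapped. Pign at 1.61 ± 0.141, Gpr55 at 1.07 ± 0.0910, Aim2 at 0.605 ± 0.0639, Tnnt2 at 0.272 ± 0.101 and Ugt1a6a at 0.135 ± 0.0333 were the low members. In TG the order was another: Bok was highest at 12.3 ± 1.49 CPM per kb (SD, n = 3), followed by Dbi at 8.42 ± 0.579 and Nav1 at 8.34 ± 0.379, whose ranges overlapped. Aim2, at 1.53 (range 1.44 to 1.71), stood above Pign at 1.13 (1.06 to 1.23) and Gpr55 at 0.436 in TG. Ugt1a6a and Tnnt2 were again the lowest, with means of 0.0248 and 0.0140 from few counts.

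Sex was not used to choose the genes. None of the 10 differed between the sexes in edgeR's quasi-likelihood test, where 12 of 17151 genes (0.07%) did, and 2 of the 10 had an unadjusted p under 0.05 against 947 genes in all. These 2 were Idh1, at 0.21 ± 0.05 on the log2 scale, male minus female, and Nav1, at -0.16 ± 0.06, and neither passed (adjusted p = 0.615 and 0.874, edgeR). The choice of genes also favoured a genotype difference that was alike in both sexes. In edgeR's interaction test of genotype with sex 0 of the 10 passed, as did 0 of 17151 genes (0%). None of the 10 had an unadjusted p under 0.05 there, against 2143 genes in all, and DESeq2 called 80 genes, none of them among the 10. Nav1 was lower by 0.87 ± 0.09 in females and by 1.03 ± 0.08 in males, on the log2 scale. Clasp1 was higher by 0.17 ± 0.06 in females and 0.31 ± 0.05 in males, and had the smallest adjusted p of the 10 for the interaction (0.466, edgeR). Aim2 had 1.11 ± 0.23 in females and 1.09 ± 0.23 in males.

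Of the 975 tested genes of chromosome 1, 20 (2.05%) passed between genotypes with the class term, against 61 of 15619 tested genes with a position elsewhere (0.391%). Chromosome 1 was not the highest in this respect, since 5.99% of tested genes passed on chromosome 18, and 1.23% did so on chromosome 17. The median absolute log2 difference was 0.0866 on chromosome 1 and 0.0778 elsewhere, so most genes of the chromosome lay near the general level. Of the 20, 9 were higher and 11 lower in TG. When calls with starts within 2 Mb of each other were joined, they formed 12 loci, of which 10 held a single gene.

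Nav1 and Tnnt2 belong to the largest of these loci. Each locus runs from its first to its last call, and members chosen for passing are counted in it. Its share of genes passing is thus raised by construction, and nothing is read from that share. The largest locus spans 2.23 Mb, from 134182156 to 136415271, and 8 of its 38 tested genes passed. The other 6 there were Chil1, a chitinase-like protein, at 0.60 ± 0.11, Ube2t, a ubiquitin-conjugating enzyme, at 1.14 ± 0.22, Arl8a, a small GTPase of lysosomes, at -0.27 ± 0.04, Ipo9, an importin, at 0.41 ± 0.05, Tnni1, the slow skeletal troponin I, at -2.79 ± 0.38, and Ddx59, an RNA helicase, at 0.44 ± 0.09. Nearby genes thus differed in opposite directions: Ipo9 was higher beside Nav1, which was lower, and Tnnt2 and Tnni1 were both lower. Within 1 Mb of the Nav1 start, here the lower coordinate of the gene, 6 of 31 neighbours passed and 12 had an unadjusted p under 0.05. Near Tnnt2 these were 6 and 13 of 29. Both windows overlap, and each counts the other of these genes among its calls, so they are not separate neighbourhoods. None of the neighbours within 1 Mb of the other 8 genes passed. Their median absolute log2 difference was nevertheless 0.23 around Aim2 and 0.19 around Ugt1a6a, beside 0.23 around Nav1 and 0.27 around Tnnt2. Around the rest it ran from 0.047 (Idh1) to 0.136 (Clasp1), where the whole chromosome had 0.0866. Clasp1 and Dbi, 1.72 Mb apart, formed the only other locus of more than 1 gene. There 2 of 11 tested genes were past the threshold, and these 2 are members that set its ends.

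Gpr55 had 6 of 22 neighbours with an unadjusted p under 0.05, Ugt1a6a 5 of 22, Bok 4 of 25, Dbi 3 of 11, Aim2 2 of 16, Pign 2 of 9, Clasp1 1 of 4 and Idh1 0 of 8, where 1440 of 17151 genes in all had one. The remaining chromosome 1 genes past the threshold, each alone in its locus, were Mcm6 at -2.34 ± 0.18, Slc35f5 at -0.51 ± 0.10, Pm20d1 at 0.76 ± 0.12 and Niban1 at 0.53 ± 0.09. In windows of 10 Mb, the windows from 120 to 130 and from 130 to 140 Mb had the highest shares, with 9.68% of 31 and 9.18% of 98 genes past the threshold, and there were none before 60 Mb or after 180 Mb.

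**Figure D4:**
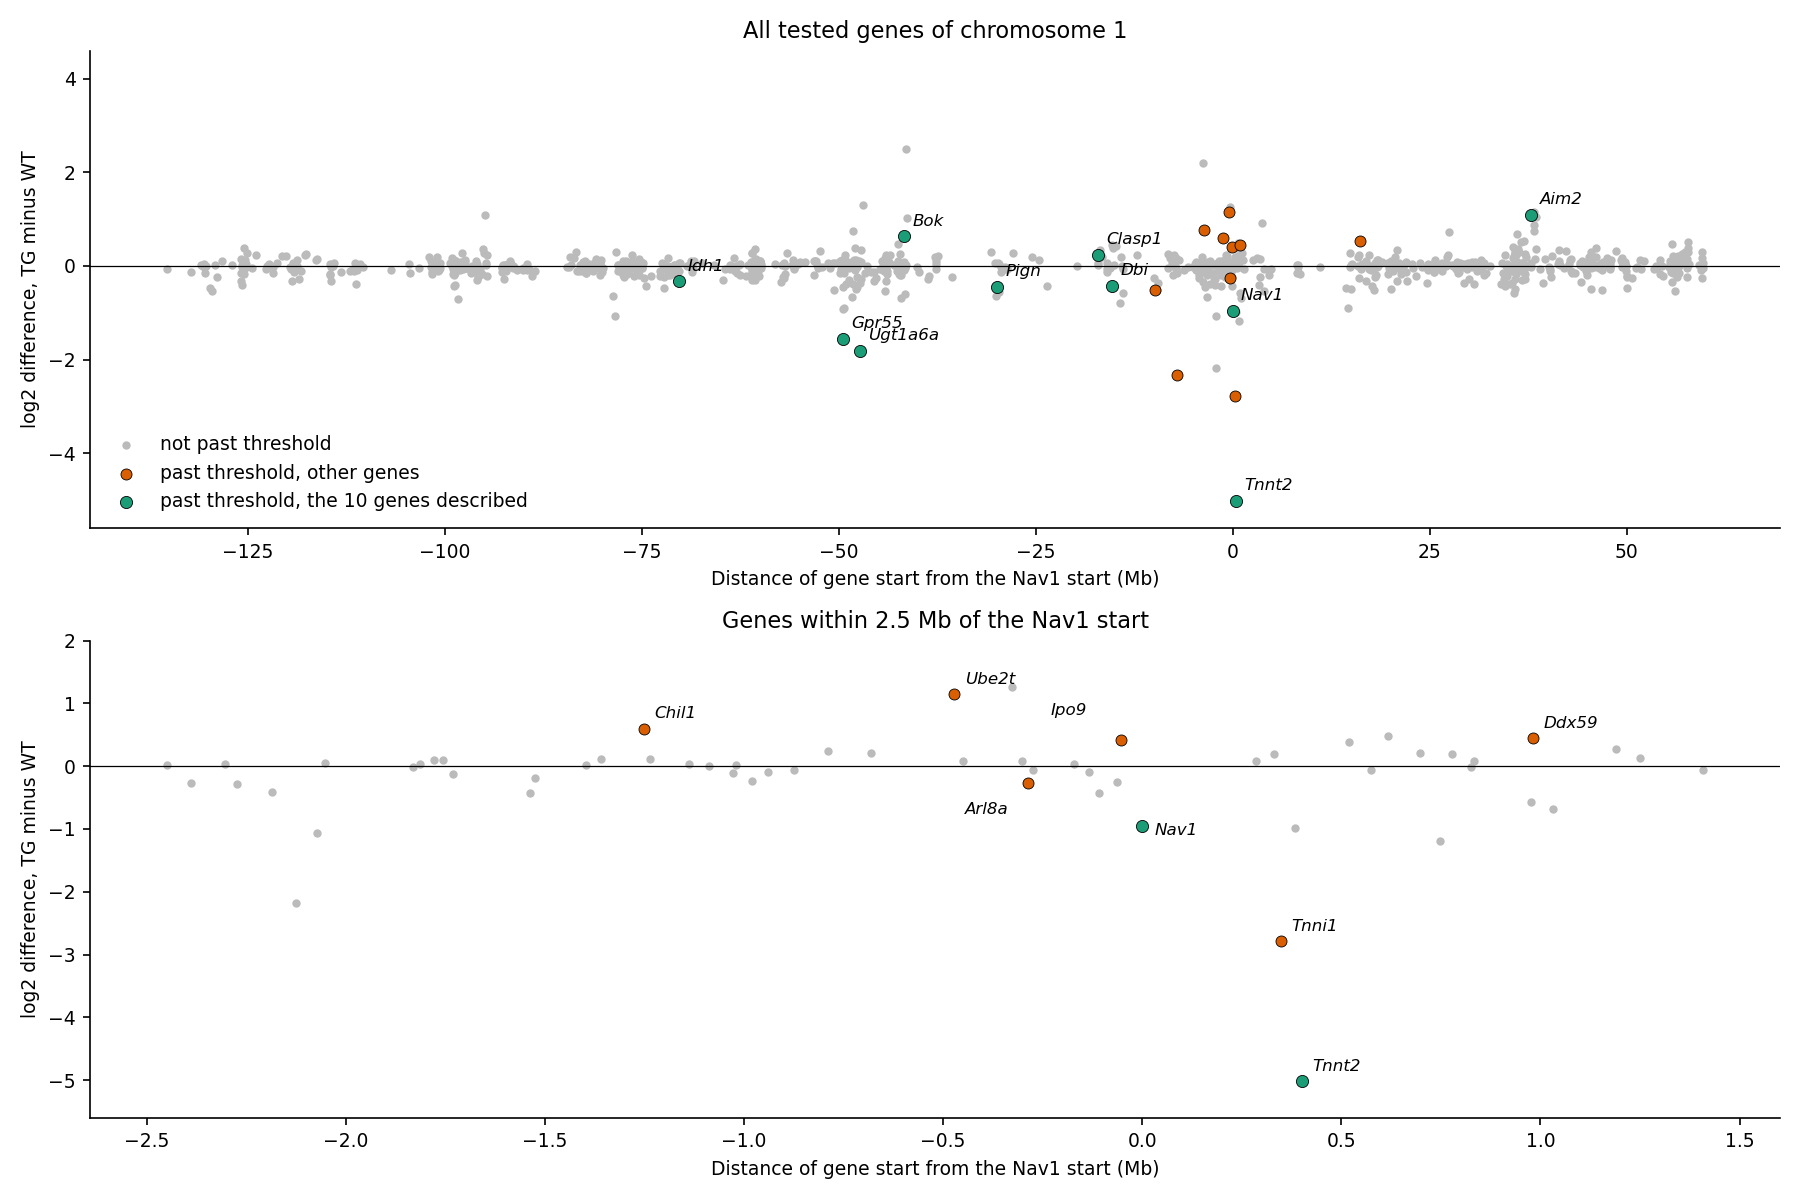
Genotype difference (log2, TG minus WT, fit with class term) of the 975 tested genes of chromosome 1 against the distance of their start from that of Nav1 in Mb, with the range within 2.5 Mb below. The 10 genes described lie on both sides of 0 and far apart, except for Nav1 with Tnnt2 among the 8 calls of 1 locus, and Clasp1 with Dbi.

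The 10 genes were chosen by the genotype contrast, so their adjusted p values are a description only. Of the 10, those nearest to the threshold had 0.0188 for Ugt1a6a, 0.0188 for Clasp1 and 0.0157 for Pign in edgeR's fit. Among the other chromosome 1 calls, Ddx59, Ube2t, Chil1, Slc35f5 and Niban1 lay nearer to it, from 0.0241 for Niban1 to 0.0424 for Ddx59 in edgeR's fit. Mcm6, Ipo9, Tnni1, Pm20d1 and Arl8a had smaller adjusted p than Pign, from 2.33e-05 for Mcm6 to 0.00823 for Arl8a in edgeR's fit. Just outside lay Actr3, a subunit of the actin-nucleating Arp2/3 complex, at 0.0547, Klhl12, an adaptor of a ubiquitin ligase, at 0.0557, and 4933407L21Rik at 0.0561, in the same fit. Their log2 differences were -0.25 ± 0.05, -0.23 ± 0.05 and -0.93 ± 0.19.

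The genes that work with each member mostly did not pass. These lists hold the members themselves and were drawn up knowing earlier results, so they are counted without a test, beside 40 higher and 45 lower of 17151 genes in all, whose median log2 difference was 0.00. Of 17 microtubule plus-end and navigator genes, Clasp1 passed upward and Nav1 downward, with a median of -0.00. Their relatives Nav2, Nav3 and Clasp2 had differences of 0.13 ± 0.09, -0.12 ± 0.08 and 0.05 ± 0.04, not past the threshold. Of 9 troponin and tropomyosin genes tested, Tnnt2 and Tnni1 passed, both downward, and the median was -0.09. Tnnc1, the troponin C that partners cardiac troponin T, had -0.92 ± 0.49 and did not pass. Among 8 muscle markers, Actc1, Myl2 and Ckm had too few counts to be tested, and none of the other 5 passed.

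For the metabolic members, Idh1 was the single call among 14 genes of isocitrate and NADPH metabolism, with a median of -0.02. Me3 and Me1, the malic enzymes, had 0.21 ± 0.07 and -0.16 ± 0.07 and did not pass. Dbi was the single call among 8 acyl-CoA binding genes (median 0.04), Ugt1a6a among 6 glucuronidation genes (median -0.16) and Pign among 28 GPI anchor genes (median 0.00). Pgap3, which remodels GPI anchors, and Piga, which starts their synthesis, had 0.19 ± 0.07 and -0.23 ± 0.10 without passing.

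Gpr55 was the single call among 11 endocannabinoid and lysophospholipid genes (median -0.05), where Cnr1, the main cannabinoid receptor of neurons, had -0.31 ± 0.23. Bok was the single call among 14 BCL2 family genes (median 0.04), with Bmf next at 0.33 ± 0.11. Aim2 was the single call among 7 PYHIN genes, its family of DNA-binding proteins, all on chromosome 1. The other 6 PYHIN genes had differences from 0.15 ± 0.29 for Mndal to 1.16 ± 0.44 for Ifi209, none past the threshold, and the median of the 7 was 0.87. Of 10 inflammasome and DNA sensing genes none passed. Pycard and Casp1, which act with AIM2 in the inflammasome, had 0.08 ± 0.14 and 0.22 ± 0.19. None of 5 tested genes known to differ between C57BL/6 substrains passed. A count of RNA calls does not show whether the groups differ in substrain, which was not tested. Of the 5, Crb1, which lies on chromosome 1, had 0.91 ± 0.35, and Nnt had -0.02 ± 0.06.

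No marker of microglia, oligodendrocytes, astrocytes, neurons, neuroblasts, endothelium or muscle passed between genotypes with the class term. Of 8 oligodendrocyte markers 1 had a positive difference, with a median of -0.20. Their summed level in the olfactory class ran from 1470 to 2400 CPM for TG and from 1282 to 2564 CPM for WT, and 13329 to 15097 against 15055 to 16506 CPM in the hindbrain class. Summed astrocyte markers ran from 3162 to 3687 CPM in the TG and from 3572 to 4074 CPM in the WT libraries of the olfactory class, where Dbi and Idh1 were lower as well. In the hindbrain class, where these genes were also lower, the sums were 4838 to 6105 CPM for TG and 4696 to 6422 CPM for WT, and the median difference of the 7 astrocyte markers was -0.01. Summed neuroblast markers in the olfactory class ran from 891 to 1194 CPM for TG and from 497 to 1138 CPM for WT. That class was not uniform, with Neurod6 from 4.35 to 55.8 CPM in WT and from 11.9 to 14.9 CPM in TG. The part of these cell types or of tissue make-up in these results was not tested.

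The call of each gene with the class term was repeated with each of the 15 libraries left out. The genes were chosen by passing this contrast, so the counts describe dependence on single libraries and give no support for the differences. The fit without TG female 3 is close to a repeat, since that library adds nothing to the difference. Nav1, Tnnt2, Idh1, Gpr55, Dbi and Aim2 passed in all 15 fits. Pign passed in 13, without passing when TG male 1 or TG male 4 was left out, and its difference ran from -0.49 to -0.40. Bok passed in 12, not without WT male 3, TG female 2 or TG male 4, over a range of 0.50 to 0.72. Ugt1a6a passed in 11, not without TG female 2 or any of the 3 TG males, over -1.97 to -1.69. Clasp1 passed in 10, not without WT male 3, TG female 4 or any of the 3 TG males, over 0.23 to 0.27. In the olfactory class alone 4 of the 10 passed, namely Nav1, Tnnt2, Gpr55 and Aim2, and no sign changed for any of the 10 in any of these fits.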

How the data were processed

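The table the authors deposited holds raw counts, whole numbers for 27179 NCBI gene IDs in 15 libraries. STAR 2.7.5b, the GRCm38 build and featureCounts of Subread are named, with no settings, in the submitters' processing notes. Per the labels, 250 ng of RNA went into a stranded kit that removes ribosomal RNA, read as 100 bp pairs. Symbols and positions came from RefSeq (25275 IDs matched, the other 1904 holding 0.862% of counts), and exon lengths and overlaps from GENCODE. Tests used edgeR 4.0.16 under R 4.3.3 (filterByExpr over the 4 groups, TMM, robust quasi-likelihood fit, Benjamini-Hochberg adjustment over 17151 genes at 0.05), after a check on simulated data. Genotype was fitted with sex and library class, and without class. Library classes use fixed CPM thresholds on 4 marker genes. SE is the log2 value over the root of F. Nothing in the labels names litters or cages, so p-values reflect only how far these samples vary, which may be in part technical. No 2 libraries of the same group were duplicates (lowest chi-square per gene 6.34), and pairs across groups were not compared. Named were all 10 genes, other symbol-bearing chromosome 1 calls, 3 genes just outside, neighbours called, and from each list the calls or up to 2 others, while Nav2, Nav3, Clasp2, Ugt1a7c, Tnnc1, Cnr1, Pycard, Casp1, Nnt and Mndal were named after their values were seen. The members, lists and marker thresholds were chosen with earlier results of these data known. DESeq2 1.42.0, other size factors and filters, a non-robust fit, a replicate block and left-out libraries were tried. Of per-sample columns, none was left unused. Amino acid sequences were not used here.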

Additional observations from a re-analysis of the deposited data

Results flagged for a closer look

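In 30 groups of 4 libraries, those of the 3 groups of that size for each of the 10 genes, 5 held a library far from its 3 fellows, where chance flags about 1 in 20 groups. Nav1 in WT males was lowest in replicate 3, of the hindbrain class, at 208 CPM against 276 to 283 CPM in the others. Tnnt2 in WT females was highest in replicate 2, of the cortex class, at 7.05 CPM against 1.50 to 1.78 CPM. In the same library Ugt1a6a lay at 1.31 CPM against 0.361 to 0.498 CPM in the other WT females. Gpr55 in TG females was highest in replicate 2, of the olfactory class, at 1.62 CPM against 0.227 to 0.258 CPM. Aim2 in WT males was lowest in replicate 4, of the cortex class, at 1.11 CPM against 1.84 to 1.97 CPM. In each case the library was the only one of its class in its group.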

How the results depend on the processing

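The genotype contrast with the class term called 85 genes, and 175 in DESeq2, 53 with the replicate block, 46 in the olfactory class alone, 41 without the hindbrain and cerebellum classes, and 56 to 86 with 1 library left out, the lowest without TG male 4. Of the 10 genes described, 10 passed in DESeq2, 7 with the block (not Bok, Clasp1 or Dbi), 6 without TG male 4, 4 in the olfactory class alone and 5 without the hindbrain and cerebellum classes. Without the class term, 19 genes passed, against 40 in DESeq2, 46 in the olfactory class and 7 without the hindbrain and cerebellum classes. The interaction with sex went from 0 genes to 80 in DESeq2 and ran from 0 to 1 with 1 library left out (1 without TG female 2). The interaction with class went from 2 genes to 132 in DESeq2 and to 0 with the replicate block. It ran from 0 to 37 with 1 library left out: 37 without WT female 2, 9 without WT male 4, 8 without WT male 1, 1 without WT male 2, WT female 1 or WT female 4, and 0 without WT male 3, WT female 3, TG female 4, TG male 1 or TG male 3. The count of genes with separate genotype ranges ran from 2 to 4, the highest without TG male 4, where Ugt1a6a and Aim2 joined. With neighbours counted within 2 Mb, 4 of the 10 genes had a called neighbour in place of 2. The cause of these shifts was not tested. No call reversed its sign in 1293 comparisons of single genes, while 35 changed sign without a call. The joint tests with library class among them carry no sign and could not reverse. Of 7 same-numbered pairs 2 had deviations correlated over 0.1, in a range of -0.56 to 0.59. These were male pair 1 (0.40, both olfactory class) and male pair 4 (0.59, both cortex class). The other pairs joined different classes, so this check cannot decide whether replicate numbers pair the samples. Depth limits Tnnt2 and Ugt1a6a, and a filter of 1 CPM in 7 libraries removed Ugt1a6a.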
